A study of Mus musculus with 6 samples.

Results

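Small leucine-rich proteoglycans are secreted matrix proteins built around a curved core of leucine-rich repeats. The 10 genes described here are Dcn, Bgn, Lum, Fmod, Ogn, Omd, Prelp, Aspn, Podn and Kera. They were chosen by name, as the rows of the deposited table that carry these symbols, and make up 10 of its 55487 genes. RNA came from the aorta of mice. In 3 libraries the mice lacked Ogt in smooth muscle cells (Ogt knockout), and in the other 3 they carried a floxed, intact Ogt gene (genotype LoxP, control). Ogt makes O-GlcNAc transferase, which places a sugar on nuclear and cytoplasmic proteins. The sample titles carry the name SM22, the smooth muscle protein made by Tagln. The sources used here do not give the promoter used for Cre, whether control mice carried Cre, the age and sex of the mice, or how many mice stand behind a library. The p-values therefore reflect the spread among 3 libraries a group, which may be technical in part.

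These proteoglycans coat collagen fibrils and shape how the fibrils assemble and space themselves. Several also bind growth factors of the TGF-β family or cell-surface receptors. In the artery wall decorin (Dcn) is made largely by adventitial fibroblasts, biglycan (Bgn) is abundant in the media and binds lipoproteins in lesions, and osteoglycin (Ogn, also called mimecan) is made by smooth muscle cells. Most members lie in 3 clusters in the genome that arose by duplication.

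Ogt itself had 93.3, 73.5 and 70.9 CPM (counts scaled to a common library size) in Ogt knockout replicates 1 to 3 and 177.4, 183.2 and 150 CPM in control replicates 1 to 3. Its groups did not overlap, and its mean in knockouts was 46.6% of control (log2 fold change -1.10 ± 0.15 SE, edgeR adjusted p = 0.0214). Without knockout replicate 1, 2 or 3 the edgeR adjusted p of Ogt was 0.0729, 0.126 and 0.0732. Without control replicate 1, 2 or 3 it was 0.105, 0.0247 and 0.0306. Total counts ran from 11845644 to 18218385 in knockout libraries and from 3038782 to 13738958 in control libraries. The lowest total was in control replicate 2, where mitochondrial ribosomal RNA took 10.2% of counts, against 0.491% to 0.823% in the other 5 libraries. Smooth muscle markers were abundant in every library, with summed levels of 26084 to 30884 CPM in knockouts and 31675 to 37763 CPM in controls.

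Prelp fell in the Ogt knockout aorta, and it was the 1 member of the 9 that had enough counts to be tested that passed the threshold. Omd and Ogn, from the chromosome 13 cluster, had knockout values below all control values but did not pass. Bgn, Dcn, Lum, Fmod, Aspn and Podn had overlapping groups, and Kera had no counts. A gene was called when its adjusted p in edgeR's quasi-likelihood test with Benjamini-Hochberg adjustment over all 16139 tested genes was under 0.05. Among all tested genes 1.56% were called lower and 1.9% higher. Of the members, 1 of 9 was called lower and 0 of 9 higher. At an unadjusted p under 0.05, 0 members were higher and 3 lower, against 22.7% of all tested genes in either direction and 11.3% lower. DESeq2 and limma-voom each called 0 members higher and 2 lower (Prelp and Omd), beside 4.6% and 2.33% of all tested genes lower. With sample quality weights limma-voom called the same 2 members lower, beside 5.66% of all tested genes, and without control replicate 2 edgeR did so, beside 2.54%. Of the 9, 3 had every knockout library below every control library, as had 14.8% of all tested genes, and 0 had every knockout library above, as had 16.9%. The median log2 fold change (knockout minus control) of the 9 was -0.35, with 5 negative and 4 positive values, and that of all tested genes was -0.01.

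The regions before the start sites of 5 genes are shown because these genes are described beside their neighbours here. Prelp and Fmod are neighbours on chromosome 1, of which Prelp was called and Fmod was not. Whether their changes differ was not tested. Ecm2, a related gene that is no member, lies at one end of the chromosome 13 cluster and Ogn at the other, with Omd next to Ogn. Each line gives 250 bases before the RefSeq start site on the GRCm38.p6 build, 5′ to 3′ on the gene's own strand. Capitals mark matches on either strand to any of 8 searched motifs.
Prelp, chr1:133921402-133921651, minus strand: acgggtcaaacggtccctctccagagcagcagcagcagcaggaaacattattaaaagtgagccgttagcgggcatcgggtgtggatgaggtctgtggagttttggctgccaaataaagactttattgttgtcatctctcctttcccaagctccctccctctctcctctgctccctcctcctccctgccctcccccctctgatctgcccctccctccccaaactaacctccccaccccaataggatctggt
Ecm2, chr13:49504560-49504809, plus strand: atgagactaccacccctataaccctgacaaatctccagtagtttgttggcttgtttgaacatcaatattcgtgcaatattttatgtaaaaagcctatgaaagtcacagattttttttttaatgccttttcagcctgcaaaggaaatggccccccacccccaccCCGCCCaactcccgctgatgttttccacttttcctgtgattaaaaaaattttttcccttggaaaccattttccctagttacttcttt
Omd, chr13:49582212-49582461, plus strand: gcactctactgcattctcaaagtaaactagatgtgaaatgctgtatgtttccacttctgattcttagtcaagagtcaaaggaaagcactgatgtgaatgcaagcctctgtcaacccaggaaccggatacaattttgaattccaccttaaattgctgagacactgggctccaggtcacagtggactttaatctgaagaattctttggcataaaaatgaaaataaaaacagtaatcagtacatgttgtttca
Ogn, chr13:49607765-49608014, plus strand: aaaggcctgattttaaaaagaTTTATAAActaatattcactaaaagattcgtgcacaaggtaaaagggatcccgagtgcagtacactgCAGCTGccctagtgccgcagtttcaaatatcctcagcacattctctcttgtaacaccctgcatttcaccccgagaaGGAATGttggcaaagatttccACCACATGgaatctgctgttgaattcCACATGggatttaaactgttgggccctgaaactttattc
Fmod, chr1:134037004-134037253, plus strand: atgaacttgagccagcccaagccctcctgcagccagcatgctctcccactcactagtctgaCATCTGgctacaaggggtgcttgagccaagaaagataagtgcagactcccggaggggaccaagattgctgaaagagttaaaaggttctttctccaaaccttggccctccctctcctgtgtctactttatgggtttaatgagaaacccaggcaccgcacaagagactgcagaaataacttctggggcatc

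The motifs searched were the TATA box TATAAA, the E-box CANNTG, the AP-1 site TGANTCA, the TEAD core GGAATG, the RUNX core TGTGGT, the GC box GGGCGG, the SMAD element GTCTAGAC and the CArG box, the element bound by serum response factor. Of 32851 mouse promoters of the same length, 12.4% held the TATA box, 66.2% the E-box, 6.75% the AP-1 site and 12.6% the TEAD core. The RUNX core was in 14.0%, the GC box in 32.7%, the SMAD element in 0.167% and the CArG box in 1.47%. The Prelp and Omd windows held none of the 8 motifs. The Ecm2 window held 1 GC box and the Fmod window 1 E-box. The Ogn window held 3 E-boxes, 1 TEAD core, 1 RUNX core that overlaps an E-box, and 2 TATA boxes that overlap on opposite strands. Prelp, Ecm2, Omd and Ogn, the genes shown that had lower knockout values, therefore shared no searched motif in these windows. The window of Aspn, not shown, held 2 TATA boxes and 1 E-box, motifs that the Ogn window held as well. Base composition differed as well, with 55.6% G and C in the Prelp window, 40% in that of Ecm2, 38.4% in that of Omd, 42% in that of Ogn and 51.2% in that of Fmod, against a median of 52.4% over all promoters. A match is a description of the letters, and the absence of one says only that the letters are not in this window. A window was found for 8 of the 10 members, and Dcn and Lum were not matched.

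Prelp makes prolargin, a heparin-binding member that ties basement membranes to collagen. The gene (ENSMUSG00000041577) lies on the minus strand of GRCm38 chromosome 1 at 133910304 to 133921414. Prelp had 378.2, 388.0 and 417.6 CPM in knockout replicates 1 to 3, against 753.5, 526.9 and 726.2 CPM in control replicates 1 to 3. The knockout libraries lay close together and all below the lowest control, which was control replicate 2. The means were 394.6 ± 20.5 CPM in knockouts and 668.9 ± 124 CPM in controls (SD, n = 3 each), so the knockout mean was 59.0% of control. The log2 fold change was -0.76 ± 0.16 (SE), with a 95% interval of -1.14 to -0.39 and an edgeR adjusted p of 0.0492, close to the threshold. The call was lost without knockout replicate 1, 2 or 3 (adjusted p of 0.233, 0.206 and 0.112) and without control replicate 1 or 3 (0.153 and 0.0866). It was kept without control replicate 2, with a log2 fold change of -0.90 and an adjusted p of 0.0154. Genes called in all numbered 12, 13 and 33 without knockout replicate 1, 2 or 3 and 7 without control replicate 1. Ogt was not called in those fits either. Without control replicates 2 and 3 the numbers were 911 and 280, and with all libraries 557. An antisense gene, Gm15851, overlaps Prelp and had 0.596 to 0.9999 CPM in knockouts and 0.742 to 1.44 CPM in controls, far under the level of Prelp.

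Omd makes osteomodulin, a keratan sulfate proteoglycan best known from bone. It lies on the plus strand of chromosome 13 at 49582462 to 49592822 (ENSMUSG00000048368). Omd was a low-abundance transcript, with 118, 174 and 224 counts in knockout replicates 1 to 3 and 256, 45 and 247 counts in control replicates 1 to 3. Scaled for depth, these were 10.04, 10.2 and 12.2 CPM in knockouts and 17.6, 16.7 and 18.0 CPM in controls. All 3 knockouts lay below all 3 controls, and control replicate 2 lay close to the other controls in spite of its depth. The means were 10.8 ± 1.20 CPM in knockouts and 17.4 ± 0.655 CPM in controls, or 62.2% of control. This was a log2 fold change of -0.69 ± 0.15 (95% interval -1.03 to -0.34), and the edgeR adjusted p of 0.0520 missed the threshold. Without control replicate 2 it was 0.0458, past the threshold, and without any other library it was 0.0900 to 0.233.

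Ogn makes osteoglycin, a class III member that is an abundant matrix protein of arteries. It lies 15.2 kb beyond Omd at 49608046 to 49624501 (ENSMUSG00000021390). Ogn had 562.5, 599.9 and 701.03 CPM in knockout replicates 1 to 3 and 1139, 762.3 and 787.6 CPM in control replicates 1 to 3. Control replicate 1 stood well above the others, and the gap between the highest knockout and the lowest control was small. The means were 621.1 ± 71.7 CPM in knockouts and 896.3 ± 211 CPM in controls, or 69.3% of control. On the log2 scale the change was -0.53 ± 0.19 (95% interval -0.97 to -0.09), which did not pass the test (edgeR adjusted p = 0.155). Without control replicate 1 the log2 fold change was -0.33. On the deposited FPKM scale (fragments per length and library total, without the scaling between libraries) the groups overlapped, since knockout replicate 3 had 275.0 FPKM and control replicate 2 had 263.7 FPKM.

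Aspn makes asporin, a class I member with a run of aspartic acids that binds TGF-β. It lies between Ecm2 and Omd at 49544443 to 49567565 (ENSMUSG00000021388). Aspn had 48.5, 46.6 and 53.2 CPM in knockouts and 61.2, 46.3 and 79.6 CPM in controls. Control replicate 2 was level with the knockout libraries and the other controls were above them. The log2 fold change was -0.35 ± 0.19 with a 95% interval of -0.79 to 0.10 (edgeR adjusted p = 0.323). Leaving out control replicate 3 gave -0.13, and leaving out control replicate 2 gave -0.50, neither of which was called.

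The chromosome 13 cluster holds Ecm2, Aspn, Omd and Ogn in this order on 1 strand within 119.7 kb, with no other protein-coding gene between them. All 4 lie inside Cenpp, a centromere gene on the opposite strand, which had at most 1.36 CPM in knockouts and 0.582 CPM in controls. At these low levels the Cenpp knockouts were all above the controls, and it was not called (log2 fold change 1.36, edgeR adjusted p = 0.194). Ecm2, which makes a leucine-rich repeat protein of the matrix and lies at 49504810 to 49532789, had 115.4, 122.1 and 148.8 CPM in knockouts and 259.4, 257.3 and 219.7 CPM in controls. Its groups were far apart, with means of 128.8 ± 17.7 CPM in knockouts and 245.5 ± 22.4 CPM in controls, or 52.5% of control. Ecm2 was called lower (log2 fold change -0.93 ± 0.14, edgeR adjusted p = 0.0270). That call was lost without knockout replicate 1, 2 or 3 (adjusted p of 0.156, 0.144 and 0.0554) or control replicate 1 (0.111). Ogt was not called in these fits either. The 4 log2 fold changes of the cluster were thus all negative, at -0.93, -0.35, -0.69 and -0.53 in gene order. Of all tested genes 51.3% had a negative one. The genes flanking the cluster within 100 kb, chosen after their values were seen, were not called. Tes3-ps had a log2 fold change of -0.26, Nol8 of 0.04, Iars of -0.03 and Ippk of 0.43, with edgeR adjusted p-values of 0.363, 0.897, 0.921 and 0.165. Whether the cluster differs from its flanks was not tested.

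**Figure D1:**
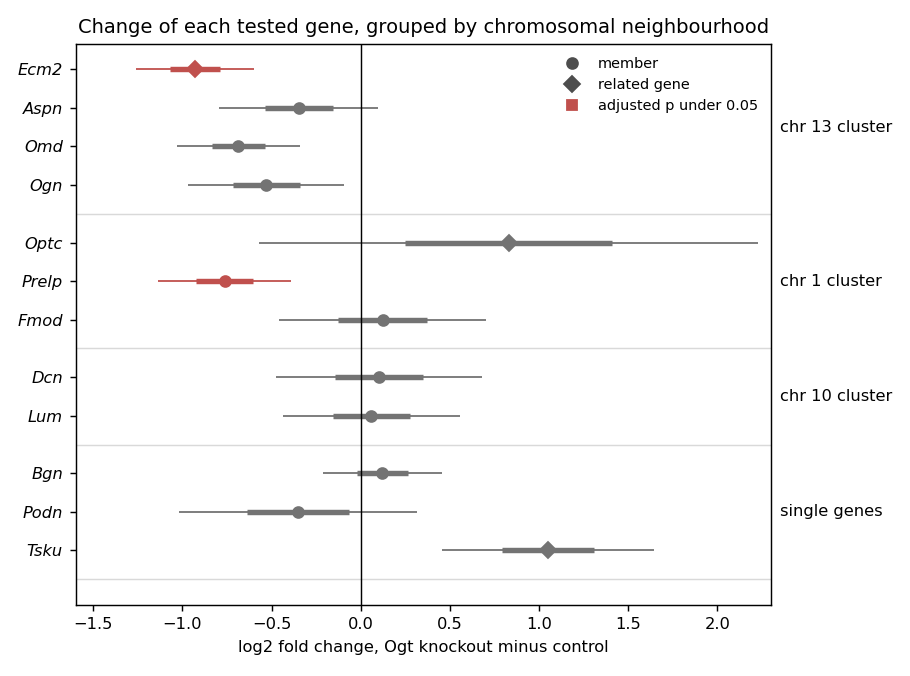
Log2 fold change (Ogt knockout minus control, x axis) of each tested member and of the related genes Ecm2, Optc and Tsku, grouped by their place in the genome. Points are edgeR estimates, thick bars 1 standard error and thin bars 95% intervals, with red for an adjusted p under 0.05. The points of all 4 genes of the chromosome 13 cluster are left of 0. Prelp is at -0.76 and its neighbour Fmod at 0.12, with 95% intervals that overlap, and the interval of Fmod spans 0.

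Fmod makes fibromodulin, a class II member with keratan sulfate chains that binds type I collagen. It lies 115.8 kb from Prelp on chromosome 1, on the plus strand at 134037254 to 134048277 (ENSMUSG00000041559). Fmod had 200.9, 197.9 and 244.3 CPM in knockouts and 151.3, 157.2 and 280.8 CPM in controls. The controls spanned the knockout range on both sides, with control replicate 3 highest of all libraries. Its log2 fold change was 0.12 ± 0.25, with a 95% interval of -0.46 to 0.70 (edgeR adjusted p = 0.807). In the same cluster, Optc, which makes the related eye protein opticin and lies 2304 bases from Prelp, had 46.0, 41.2 and 41.2 CPM in knockouts and 17.8, 5.56 and 44.8 CPM in controls. Optc was even across knockouts and scattered across controls, and was not called (log2 fold change 0.83 ± 0.58, edgeR adjusted p = 0.443). Its log2 fold change was 0.46 without control replicate 2 and 1.73 without control replicate 3, neither of which was called. Flanking genes within 100 kb of this cluster, chosen after their values were seen, were Atp2b4 on the side of Optc (-0.05, edgeR adjusted p = 0.905) and Btg2 on the side of Fmod. Btg2, which makes an antiproliferative protein, averaged 78.5 ± 8.56 CPM in knockouts and 156.5 ± 27.7 CPM in controls and was called lower (-0.998, adjusted p = 0.0295). That call was lost without knockout replicate 1, 2 or 3 (adjusted p of 0.163, 0.126 and 0.0897) or control replicate 1 (0.0959), fits in which Ogt was not called either.

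Bgn, the class I biglycan with chondroitin or dermatan sulfate chains, was the most abundant member. It lies on chromosome X at 73483602 to 73495933 (ENSMUSG00000031375). Bgn had 4236, 3640 and 4496 CPM in knockouts and 3755, 3608 and 4008 CPM in controls. The groups overlapped, with means of 4124 ± 439 CPM in knockouts and 3791 ± 202 CPM in controls. The log2 fold change was 0.12 ± 0.14, and its 95% interval of -0.21 to 0.45 was the narrowest among the members (edgeR adjusted p = 0.652).

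Dcn and Lum are neighbours on chromosome 10. Dcn makes decorin, a class I member that binds collagen and TGF-β, and lies at 97479609 to 97518143 (ENSMUSG00000019929). Dcn had 814.5, 894.6 and 861.0 CPM in knockouts and 773.0, 522.8 and 1096 CPM in controls. The knockouts were close together and lay inside the control range, which ran from control replicate 2 to control replicate 3. For Dcn the log2 fold change was 0.10 ± 0.25 (95% interval -0.47 to 0.68, edgeR adjusted p = 0.843). Lum makes lumican, a class II keratan sulfate member, and lies at 97565128 to 97572703 (ENSMUSG00000036446). Lum had 99.1, 104.1 and 112.8 CPM in knockouts and 87.4, 77.1 and 137.2 CPM in controls. It had the same order of controls as Dcn, and a log2 fold change of 0.06 ± 0.21 (95% interval -0.44 to 0.56, edgeR adjusted p = 0.899). Leaving out control replicate 2 turned the log2 fold change to -0.12 for Dcn and -0.09 for Lum, both uncalled.

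Kera makes keratocan, a keratan sulfate proteoglycan of the cornea, and lies next to Lum at 97606879 to 97613692 (ENSMUSG00000019932). It had 0 counts in all 6 libraries and was not tested. A count of 0 allows up to 3 counts, or 0.165 to 0.253 CPM in knockouts and 0.218 to 0.987 CPM in controls, for counting error only. Epyc, the related gene at the end of that cluster, had 4, 0 and 0 counts in knockouts and 8, 0 and 12 counts in controls and was not tested.

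Podn makes podocan, a class V member first described in kidney podocytes that is also made by smooth muscle cells. It lies on the minus strand of chromosome 4 at 108014791 to 108096445 (ENSMUSG00000028600). Podn had 43.3, 38.5 and 53.8 CPM in knockouts and 41.03, 87.1 and 48.2 CPM in controls. The high value was that of control replicate 2, and the other controls lay within the knockout range. The log2 fold change was -0.35 ± 0.29 (95% interval -1.02 to 0.32, edgeR adjusted p = 0.506), and 0.02 without control replicate 2. The gene overlaps Scp2 on the same strand, which had 90.9 to 98.6 CPM in knockouts and 88.99 to 104.8 CPM in controls, so some reads could belong to either gene.

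**Figure D2:**
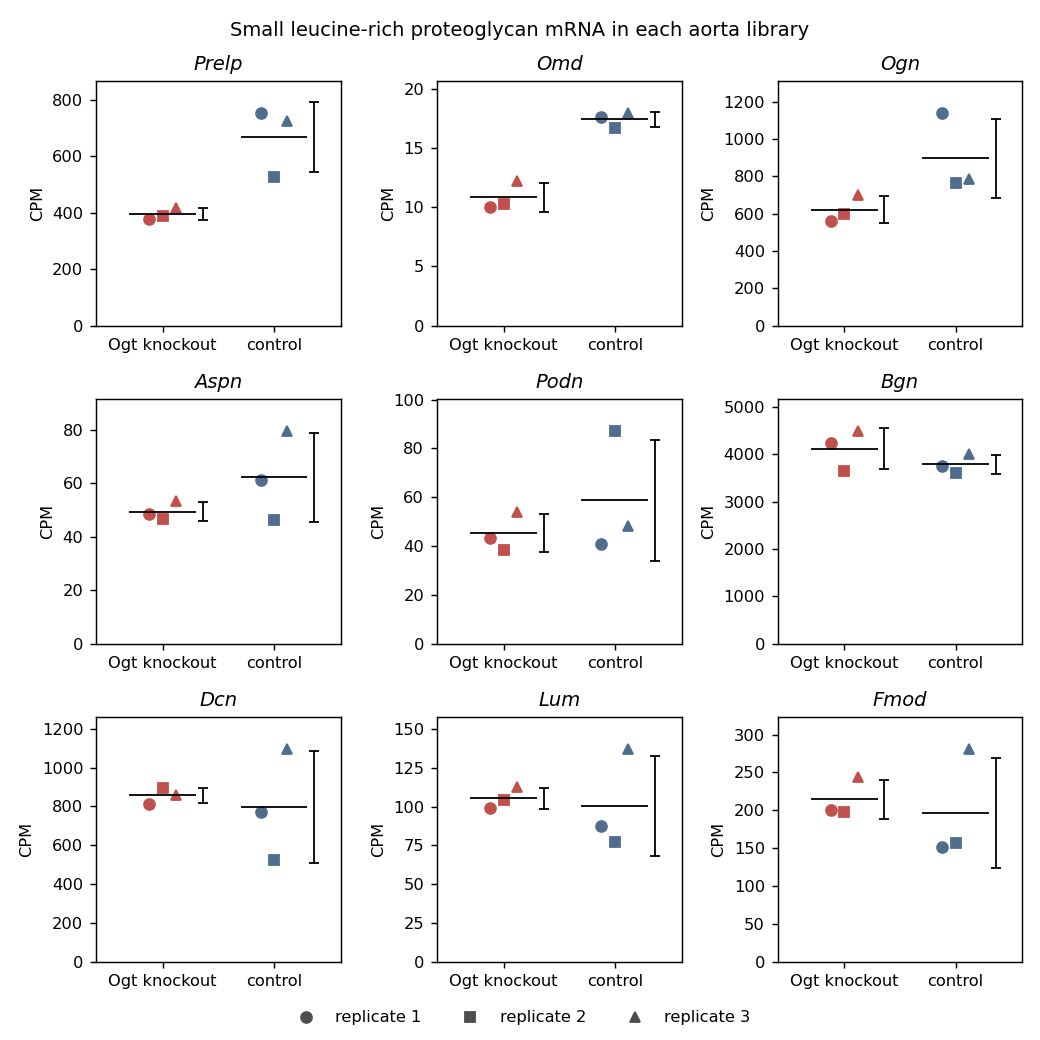
CPM of the 9 members with counts in each library, Ogt knockout left of control, on axes that start at 0. Points are libraries, with the symbol giving the replicate number, horizontal lines are group means and the bars beside them 1 SD (n = 3). Prelp, Omd and Ogn are the panels in which no knockout library reaches a control, and control replicate 2 is the square that stands apart in the Podn panel at 87.1 CPM.

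Levels of different members can be set against each other per length. In knockouts the mean FPKM fell in the order Bgn (424.7 FPKM), Ogn (241.1), Dcn (122.4), Prelp (88.5), Fmod (58.5), Lum (42.8), Aspn (12.4), Podn (4.86) and Omd (3.78). Only the ranges of Podn and Omd overlapped among neighbours in that order. In controls the order was Bgn (394.5 FPKM), Ogn (353.4), Prelp (153.1), Dcn (117.1), Fmod (54.6), Lum (41.8), Aspn (16.0), Podn (6.19) and Omd (6.14). There the ranges overlapped between Bgn and Ogn, Prelp and Dcn, Dcn and Fmod, Fmod and Lum, and Podn and Omd. Compared within each control library, Prelp was above Dcn, Dcn above Fmod and Fmod above Lum in 3 of 3. Bgn was above Ogn in 2 of 3 and Podn above Omd in 1 of 3. The place of Dcn, and the size of the shares of the pool given further on, depend on the length used. The authors' FPKM rest on a length of 6967 bases for Dcn, where the longest annotated coding transcript has 1758 bases, and with the coding transcripts Dcn stood second in both groups, ahead of Ogn and Prelp.

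The length cancels when a ratio of 2 members is compared between groups. The Prelp to Dcn ratio, in FPKM, was 0.729, 0.681 and 0.761 in knockouts and 1.53, 1.58 and 1.04 in controls. Every knockout library was below every control, with means of 0.724 ± 0.0405 in knockouts and 1.38 ± 0.299 in controls. The Prelp to Fmod ratio was 1.55, 1.61 and 1.41 in knockouts and 4.10, 2.76 and 2.13 in controls, again without overlap. The Ogn to Bgn ratio was 0.500, 0.621 and 0.588 in knockouts and 1.14, 0.796 and 0.740 in controls, and did not overlap either. The Ogn to Dcn ratio did overlap, at 1.82 to 2.21 in knockouts and 1.95 to 4.001 in controls. The Lum to Dcn ratio was 0.331 to 0.373 in knockouts and 0.322 to 0.420 in controls, so the groups overlapped for this neighbouring pair. The Bgn to Dcn ratio, in counts, averaged 4.83 ± 0.660 in knockouts and 5.14 ± 1.64 in controls. The Omd to Podn ratio, in FPKM, was 0.737 to 0.864 in knockouts and 0.622 to 1.39 in controls, which overlapped. Bgn to Dcn was the only ratio planned. The Prelp and Ogn ratios set a member with lower knockout values against a member without them. Their lack of overlap is therefore no result separate from the values of each gene. These ratios are descriptions and were not tested.

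As a pool, the members took 0.639% ± 0.0579 of all counts in knockouts and 0.666% ± 0.132 in controls, with overlapping groups. Within the summed FPKM of the pool, Bgn made up 39.9% to 44.9% in knockouts and 31.9% to 38.6% in controls. Prelp made up 8.61% to 9.28% in knockouts and 12.3% to 13.96% in controls. The separation of the Bgn share rests on the 9670 bases behind the deposited FPKM of Bgn. With coding transcripts, 2419 bases for Bgn, its share was 60.3% to 65.3% in knockouts and 55.4% to 62.98% in controls, which overlapped. The Prelp share was lower in knockouts with either length, at 3.90% to 4.30% in knockouts and 6.15% to 7.51% in controls with coding transcripts. Ogn made up 22.5% to 25.01% in knockouts and 25.4% to 36.5% in controls, a gap of under 1 percentage point between the nearest libraries. Dcn made up 11.3% to 13.6% in knockouts and 7.77% to 13.03% in controls, which overlapped. A share moves whenever another member moves, so these values are not independent of one another.

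**Figure D3:**
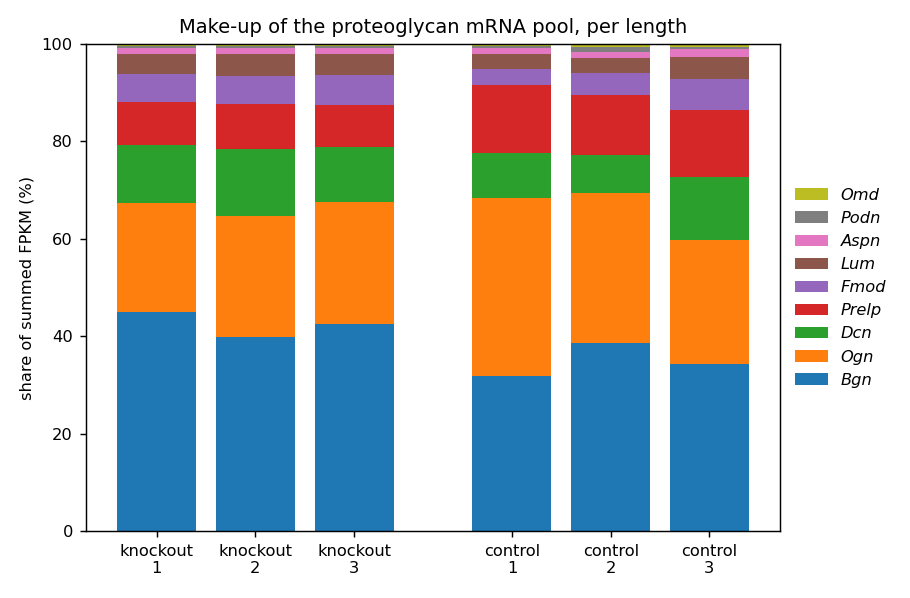
Share of the summed FPKM of the members (y axis, percent) taken by each member in each library, knockout libraries left of controls. Prelp takes 8.61% to 9.28% in knockouts and 12.3% to 13.96% in controls, without overlap. The Bgn share is 39.9% to 44.9% in knockouts and 31.9% to 38.6% in controls, a separation that is lost with coding transcript lengths (60.3% to 65.3% in knockouts and 55.4% to 62.98% in controls).

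The profiles of the members over the 6 libraries fell at different distances from each other. Distance was taken between log2 CPM values centred on each gene's mean, so a smaller value means a more similar pattern. Prelp and Omd were 0.36 apart, Prelp and Ogn 0.48, and Omd and Ogn 0.49. Dcn and Lum were 0.31 apart, Lum and Fmod 0.25, and Dcn and Fmod 0.51. Distances between a gene of the first trio and a gene of the second were larger, from 1.12 to 1.32. The first trio holds the members with lower knockout values, so these distances are no result separate from the values of each gene. Aspn was 0.63 from Prelp, 0.67 from Omd and 0.74 from Ogn, and 0.64 from Dcn, 0.55 from Lum and 0.72 from Fmod. Among 13010 genes, Lum ranked 3 in nearness to Fmod and Fmod ranked 15 in nearness to Lum, while Omd ranked 87 in nearness to Prelp. The other ranks within a trio ran from 47, for Dcn in nearness to Lum, to 782, for Fmod in nearness to Dcn. Prelp ranked 240 in nearness to Omd, and Ogn ranked 294 in nearness to Prelp and 669 to Omd. The nearest genes were Dcxr (0.07) and Swsap1 (0.09) for Prelp, Alcam (0.09) and Tbc1d16 (0.10) for Omd, and Msl3l2 (0.17) and Fbxo27 (0.22) for Ogn. They were Zfp524 (0.09) and Lbp (0.13) for Dcn, Gnpda1 (0.15) and Serpinf1 (0.16) for Lum, and Gpc3 (0.20) and Csf1 (0.25) for Fmod. Bgn was nearest to Nars (0.11) and Eif2b5 (0.11), Aspn to Ndufa7 (0.16) and Selenof (0.18), and Podn to Zdhhc17 (0.17) and Six4 (0.20). The points behind each distance are the same 6 libraries, with their shared differences in depth and composition.

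Other leucine-rich repeat genes of the matrix gave 1 call among 5 tested by edgeR, the fall of Ecm2, where 3.45% of all tested genes were called. Tsku makes tsukushi, a secreted relative that binds BMP and Wnt proteins, and had 34.1, 34.5 and 21.05 CPM in knockouts and 11.6, 12.98 and 18.2 CPM in controls. Its knockout libraries were all above its controls, but edgeR did not call it (log2 fold change 1.05 ± 0.26, adjusted p = 0.0687). It was called by DESeq2 (adjusted p = 0.0068), by limma-voom with quality weights (0.0315) and by edgeR without a low-count filter (0.0400). Chadl (-0.57) and Nyx (-0.86) were not called by edgeR.

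The collagens that these proteoglycans bind gave 0 calls among 12 tested genes by edgeR, with 2 higher and 4 lower at an unadjusted p under 0.05. DESeq2 called 1 higher and 2 lower, and limma-voom 1 lower, with or without quality weights. Over all tested genes 22.7% had an unadjusted p under 0.05, DESeq2 called 9.3%, and limma-voom called 4.73%, or 11.1% with quality weights. The median log2 fold change was -0.07. Col5a1, a chain of the fibril-nucleating type V collagen, had 448.6 ± 47.7 CPM in knockouts and 754.7 ± 147 CPM in controls, without overlap (log2 fold change -0.75 ± 0.17, edgeR adjusted p = 0.0579). Its partner chain Col5a2, chosen after its values were seen, averaged 499.8 ± 29.4 CPM in knockouts and 382.4 ± 41.7 CPM in controls (0.39, adjusted p = 0.134). The Col5a1 to Col5a2 ratio in CPM was 0.881, 0.856 and 0.952 in knockouts and 1.94, 2.17 and 1.78 in controls. Col6a1, of the beaded filaments that bind biglycan and decorin, had a log2 fold change of 0.38 (adjusted p = 0.115).

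Enzymes that build the sugar chains gave 1 call by edgeR among 27 tested genes in 3 lists, near the share of all tested genes (3.45%). DESeq2 called 5 of them, where it called 9.3% of all tested genes. Chst3, which adds sulfate to chondroitin, rose in the knockout. It had 148.9, 133.6 and 146.0 CPM in knockouts and 85.8, 68.2 and 81.3 CPM in controls (log2 fold change 0.86 ± 0.13, edgeR adjusted p = 0.0258). The call was lost without knockout replicate 1, 2 or 3 (adjusted p of 0.142, 0.126 and 0.0779) or control replicate 1 (0.105), as was that of Ogt. Of 15 tested chondroitin and dermatan sulfate genes edgeR called this 1. At an unadjusted p under 0.05, 3 were higher and 4 lower, where 22.7% of all tested genes had one. DESeq2 called 1 higher and 2 lower, and limma-voom 1 higher. With quality weights limma-voom called 1 higher and 3 lower, where it called 11.1% of all tested genes. Dsel, an epimerase that makes dermatan sulfate, had a log2 fold change of -0.61 and an adjusted p of 0.0869 by edgeR and 0.0365 by DESeq2. Of 7 genes of the linkage region 0 were called by edgeR, with 1 higher and 1 lower at an unadjusted p under 0.05, 1 higher and 1 lower by DESeq2 and by limma-voom with quality weights, and 1 lower by limma-voom without them. The smallest p-values among them were those of the xylose kinase Fam20b (-0.51, adjusted p = 0.0622) and the galactosyltransferase B4galt7 (0.56, 0.0742). Of 5 keratan sulfate genes 0 were called by edgeR, DESeq2 or limma-voom, with 1 lower at an unadjusted p under 0.05. They were led by B4galt4 (-0.48, adjusted p = 0.201) and B3gnt2 (-0.34, 0.265). The tyrosine sulfation enzymes Tpst1 (-0.22, 0.279) and Tpst2 (-0.09, 0.776), which modify the ends of fibromodulin and osteomodulin, were not called.

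Proteases and helpers that trim the core proteins gave 0 calls among 10 tested genes by edgeR, DESeq2 or limma-voom, and 0 at an unadjusted p under 0.05. The aggrecanases Adamts5 (-0.30) and Adamts4 (-0.70) had the smallest p-values, each with an edgeR adjusted p of 0.278. Of 18 growth factors and receptors bound by members 0 were called by edgeR, with 6 higher and 2 lower at an unadjusted p under 0.05, where 22.7% of all tested genes had one. DESeq2 and limma-voom with quality weights each called 3 higher and 1 lower, where they called 9.3% and 11.1% of all tested genes, and limma-voom without weights called 0. Bmp2, a bone morphogenetic protein that biglycan binds, had 27.7, 15.1 and 12.8 CPM in knockouts and 6.32, 8.53 and 7.41 CPM in controls (log2 fold change 1.35, edgeR adjusted p = 0.0637), and Pdgfa had 0.57 (0.0811).

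Among 14 other proteoglycans, 2 rose and 1 fell. Acan, the large cartilage proteoglycan aggrecan, had 79.1, 57.7 and 72.1 CPM in knockouts and 19.04, 27.1 and 18.9 CPM in controls (log2 fold change 1.72 ± 0.19, edgeR adjusted p = 0.0133). The cell-surface syndecan Sdc1 averaged 78.7 ± 4.04 CPM in knockouts and 45.7 ± 7.23 CPM in controls (0.78, adjusted p = 0.0353), and the glypican Gpc1 averaged 19.98 ± 3.37 CPM in knockouts and 38.2 ± 6.78 CPM in controls (-0.95, 0.0430). The 3 calls were kept without control replicate 2 and lost without control replicate 1 (adjusted p of 0.0806 for Acan, 0.132 for Sdc1 and 0.141 for Gpc1). They were lost as well without knockout replicate 1 (0.0729, 0.169 and 0.198), 2 (0.0504, 0.144 and 0.175) or 3 (0.0510, 0.0933 and 0.0801), and without control replicate 3 Gpc1 alone was lost (0.0818). The call of Ogt was lost as well without any of the knockout replicates or without control replicate 1. Of all tested genes 3.45% were called in either direction, and across the 9 related lists 5 genes were called.

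In whole-aorta RNA, fewer cells of a type and less RNA per cell cannot be told apart. Fibroblast markers, 10 of 10 tested with 0 called by edgeR, DESeq2 or limma-voom and 1 lower at an unadjusted p under 0.05, summed to 1362 to 1596 CPM in knockouts and 1171 to 2031 CPM in controls. Their sum was lowest in control replicate 2 and highest in control replicate 3, as were Dcn, Lum and Aspn among the controls. That order was not particular to fibroblast markers. Leukocyte and tendon markers had it too, at 213.9 and 30.0 CPM in control replicate 2 and 647.8 and 40.7 CPM in control replicate 3. Smooth muscle markers gave 1 call of 10 by edgeR, Tagln, which was lower. At an unadjusted p under 0.05, 1 was higher and 3 lower, where 22.7% of all tested genes had one. DESeq2 called 1 higher and 2 lower, where it called 9.3% of all tested genes. Without Tagln the smooth muscle markers summed to 23741 to 28014 CPM in knockouts and 26101 to 31697 CPM in controls. The sums of brown adipocyte markers did not overlap, at 157.4 to 210.7 CPM in knockouts and 286.0 to 414.5 CPM in controls. Ucp1 and Cox8b were called lower by edgeR among 6 tested, where 1.56% of all tested genes were. The largest part of each sum was Prdm16, which was not called (edgeR adjusted p = 0.123). Its own groups overlapped, at 93.8 to 138.4 CPM in knockouts and 138.0 to 245.5 CPM in controls. All 6 tested brown adipocyte markers had negative log2 fold changes, with a median of -0.96. At an unadjusted p under 0.05, 4 of them were lower, as were 11.3% of all tested genes. DESeq2 called 4 lower, where it called 4.6% of all tested genes lower. Chondrocyte markers summed to 139.5 to 176.8 CPM in knockouts and 102.6 to 137.6 CPM in controls. Within these sums Acan had 57.7 to 79.1 CPM in knockouts and 18.9 to 27.1 CPM in controls. Comp, the other abundant marker, overlapped, at 57.5 to 76.7 CPM in knockouts and 59.7 to 91.5 CPM in controls. Of the 9 genes 5 were tested, with 2 positive and 3 negative log2 fold changes. Acan was the 1 called, and the defining cartilage genes Col2a1, Col9a1, Matn3 and Cnmd averaged under 1 CPM. Tendon markers summed to 22.8 to 35.6 CPM in knockouts and 30.0 to 40.7 CPM in controls. Of 5 tested, 0 were called by edgeR or by limma-voom without quality weights. DESeq2 and limma-voom with quality weights each called 1 lower, and 1 was lower at an unadjusted p under 0.05. Endothelial markers summed to 765.3 to 1713 CPM in knockouts and 879.4 to 1059 CPM in controls, and leukocyte markers to 437.1 to 536.1 CPM in knockouts and 213.9 to 647.8 CPM in controls. White adipocyte markers summed to 1172 to 1489 CPM in knockouts and 1208 to 1762 CPM in controls. Schwann cell markers summed to 26.3 to 44.8 CPM in knockouts and 18.5 to 37.8 CPM in controls. Mesothelial markers summed to 28.1 to 35.99 CPM in knockouts and 11.5 to 18.97 CPM in controls, nearly all of it Krt18, since the other 5 averaged under 1 CPM. The part of these cell types in the levels of the proteoglycans was not tested.

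**Figure D4:**
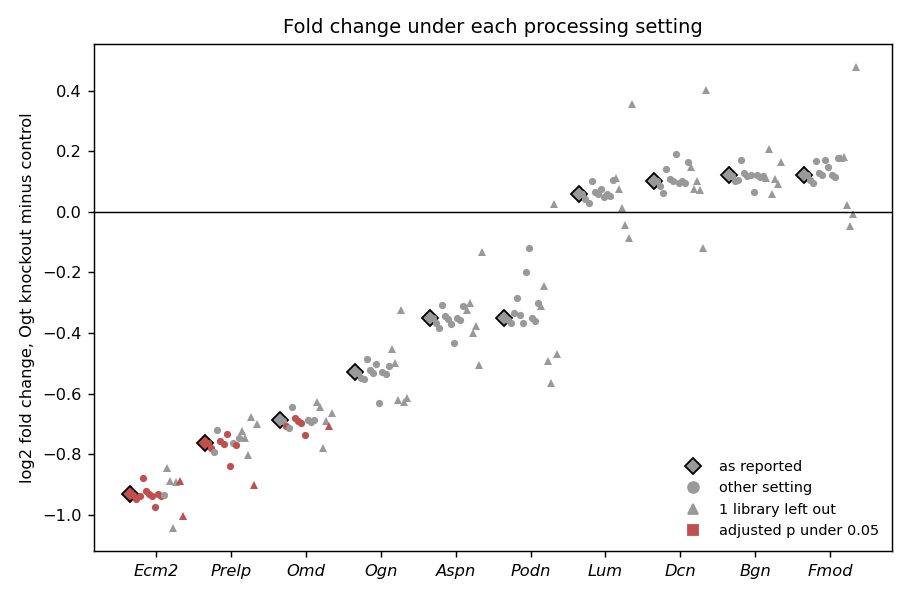
Log2 fold change (Ogt knockout minus control, y axis) of Ecm2 and the 9 tested members under each processing setting. Diamonds are the values reported, circles other tests, scalings and filters, triangles fits with 1 library left out, and red marks an adjusted p under 0.05. Ecm2, Prelp, Omd, Ogn and Aspn stay below 0 in all of them, with Prelp between -0.90 and -0.68, while Lum, Dcn and Fmod have triangles on both sides of 0.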

How the data were processed

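Per the file headers, the table holds read counts and FPKM for each gene in each of the 6 libraries. The deposited counts were whole numbers. Dividing a count by the library total and by a gene length that is the same in all libraries gave back the deposited FPKM, within a relative 1.35e-05 over 7705 genes that had 50 counts or more in each library. Per the submitters' processing notes, CASAVA 1.8, HISAT2, SAMtools 1.3.1 and edgeR were used. The sources used here give no counting program, annotation or strand setting, so reads of overlapping genes are uncertain. Those notes name GRCm39, yet 99.4% of 55141 gene identifiers shared with GENCODE M21 had their GRCm38 positions, so GRCm38 coordinates are given.

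Genes were filtered with filterByExpr by group, scaled with TMM and tested with edgeR 4.0.16 (glmQLFit and glmQLFTest, robust) in R 4.3.3, without covariates. Adjustment was by Benjamini-Hochberg over 16139 genes, with a threshold of 0.05. Fold changes are knockout minus control, and their SE is their size over the square root of F. CPM use TMM-adjusted library totals. FPKM served for levels between genes and their ratios. Distances used log2 CPM with a prior count of 2 and genes averaging at least 1 CPM. DESeq2 1.42.0, limma-voom (limma 3.58.1), other scalings and filters, and each library left out were alternatives. The steps were tested on simulated counts.

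The members and lists were chosen with earlier results of these data known. The genes named were all members, Ogt, every called gene and the 2 smallest p-values of each related list, and the 2 nearest profiles of each member. Any other named gene, apart from markers, was chosen after its values were seen.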

Additional observations from a re-analysis of the deposited data

How the results depend on the processing

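Under 11 other settings and with each of the 6 libraries left out, Prelp, Omd, Ogn, Aspn and Bgn kept their direction. Prelp was called in 7 of the 11, and not with library totals only (edgeR adjusted p = 0.107), without a filter (0.0729) or without robust estimation (0.0542). Members called lower numbered 1 as reported, 2 with upper quartile scaling, at least 10 counts in every library, DESeq2, limma-voom with or without quality weights, and 0 with library totals only, without a filter or without robust estimation. Leaving out a library gave 0 to 2. Members called higher stayed at 0. Genes called numbered 557 as reported, or 3.45% of all tested genes. They numbered 569 with upper quartile scaling and 592 with at least 10 counts in every library. DESeq2 called 1501 (9.3%) and limma-voom 763 (4.73%), or 1784 (11.1%) with quality weights. There were 193 with library totals only, 511 without a filter, 516 without robust estimation and 7 to 911 with a library left out. Related genes called numbered 5 as reported, 2 with library totals only, 18 with DESeq2, 17 with quality weights, and 0 to 8 with a library left out. With the replicate number as a block, 28 genes, 0 members and 0 related genes were called, and Prelp had an adjusted p of 0.120. Same-numbered libraries deviated together weakly or not at all (r of 0.05, 0.09 and -0.06), knockout replicate 1 was nearest to control replicate 3 (r = 0.10), and the libraries share only a number. With a library left out, log2 fold changes ran from -0.12 to 0.40 for Dcn and from -0.56 to 0.025 for Podn (sign turned without control replicate 2), from -0.087 to 0.35 for Lum and from -0.045 to 0.48 for Fmod (turned without control replicate 1, at -0.045 for both, or 2, at -0.087 and -0.0069), and from -0.17 to 0.0054 for Tpst2 (turned without knockout replicate 3). The cause was not tested. With coding transcript length, chosen after seeing the data, 8 of 10 places in the order of levels were the same in knockouts and 7 of 10 in controls, and the difference in the Prelp share of the pool was -2.74 in place of -4.40 percentage points. The difference in the Bgn to Dcn ratio was -0.31, and -1.05 to 0.57 with a library left out. In fits that left out a library, 2 libraries remained in that group. The fewest counts behind a member were in control replicate 2, with 3038782 in all and 45 for Omd.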
